A study of Mus musculus with 6 samples.

Results

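The 36 genes described here encode the machinery of DNA replication and cell division, and are the transcripts commonly read as signs of proliferation. They were taken by symbol as known cell cycle genes, with no rule on their values but with earlier results of these data known, and all 36 were found among the 25491 genes of the count table. A dividing cell licenses its replication origins in G1 phase, when cyclin E and its kinase open the way to S phase and the MCM helicase is loaded on DNA. It then copies its genome with a supply of new nucleotides, and in G2 phase and mitosis the cyclin A and B kinases, Polo-like and Aurora kinases, kinesins and kinetochore proteins assemble and run the spindle. Most of these transcripts are low in resting cells, since repressor complexes hold their promoters until the matching phase. In the marrow stroma, mesenchymal progenitors are largely out of the cell cycle under normal conditions and can divide after injury such as irradiation.

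RNA came from mesenchymal progenitor cells sorted from bone marrow as negative for CD45, TER119, CD31, CD44 and SCA1 and positive for CD51. The mice were C57BL/6J, aged 14 weeks, and every mouse of both groups had received 7 Gy of sublethal irradiation 6 weeks before. Each genotype gave 3 libraries. Mice of the Lama4-/- genotype carry no functional gene for laminin alpha 4, a chain of basement membrane laminins. No unirradiated group was analysed, and the labels do not tie each library to 1 mouse in so many words, so a p-value here reflects the spread over libraries, which may be technical. The question asked of these genes is whether the progenitors of the 2 genotypes differ in cell division transcripts. Bulk RNA does not count cycling cells, and fewer cycling cells cannot be told apart from less RNA per cell.

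Library totals ran from 6263830 to 15663957 counts. The targeted gene, Lama4, had 607, 236 and 438 counts in the wild type libraries and 0 in each Lama4-/- library, and counting error alone allows up to 3 counts where 0 were seen. Levels below are counts per 1000000 of the adjusted library total (CPM), given in the order of replicates 1, 2 and 3, and means are ± SD over 3 libraries. All 14 marrow stroma markers examined were detected, led by Col1a2, which was at 58745 ± 17145 CPM in the wild type and at 56107 ± 21497 CPM in the Lama4-/- libraries. Of these 14, 11 had a negative log2 fold change of Lama4-/- against wild type and 3 a positive one, with a median of -0.41. At an unadjusted p under 0.05 in edgeR 6 were lower and 0 higher, beside 8.34% and 4.45% of all tested genes. DESeq2 called 5 of them lower, Lepr, Pdgfra, Pdgfrb, Runx2 and Itgav, beside 4.64% of the genes it tested called in either direction. With the trend of fold change on transcript length removed, as described below, the median of the 14 was -0.15. At an unadjusted p under 0.05 in edgeR 3 were then lower and 1 higher, beside 8.11% of all tested genes in either direction. The part of these levels in the cell cycle values was not tested.

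No cell cycle gene of the 36 passed an adjusted p of 0.05 between genotypes. The test was edgeR's quasi-likelihood F test with Benjamini-Hochberg adjustment over 14465 genes, of which 1, Lama4 itself, passed (0.00691%). All 36 genes passed the filter on low counts. At an unadjusted p under 0.05 there were 3 of 36 (8.33%), namely Mki67 and Mcm4 on the lower side and Mcm5 on the higher side in Lama4-/-, against 12.8% of all tested genes. Of all tested genes, 8.34% were at that level and lower in Lama4-/- and 4.45% higher. Those background counts were 1207 lower and 644 higher, and became 967 and 988 with upper-quartile scaling. DESeq2 called 1 of the 36, Mki67, against 4.64% of the genes it tested, and limma voom called 0, with 6 of the 36 (16.7%) at an unadjusted p under 0.05 against 15.9% of all genes in that fit. In the authors' deposited table Mki67 and Mcm4 are the members with an adjusted p under 0.05, a level reached there by 6.63% of genes with a value.

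Seen as groups of 3 libraries, 4 of the 36 genes (11.1%) had every Lama4-/- value below every wild type value, as did 12% of all tested genes. These were Mki67, Mcm4, Cenpf and Tpx2. Another 3 genes (8.33%), Mcm5, Tyms and Ube2c, had every Lama4-/- value above every wild type value, against 10.3% of all tested genes. Neither share exceeded its background. The other 29 genes overlapped between genotypes. The log2 fold change of Lama4-/- against wild type was negative for 21 genes and positive for 15, with a median of -0.43 beside -0.04 over all tested genes. That median depended on which library was left out. It was 0.055, with 18 genes on each side, without wild type replicate 3 and -0.12 without Lama4-/- replicate 1. With any other library left out it lay between -0.54 and -0.27.

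**Figure D1:**
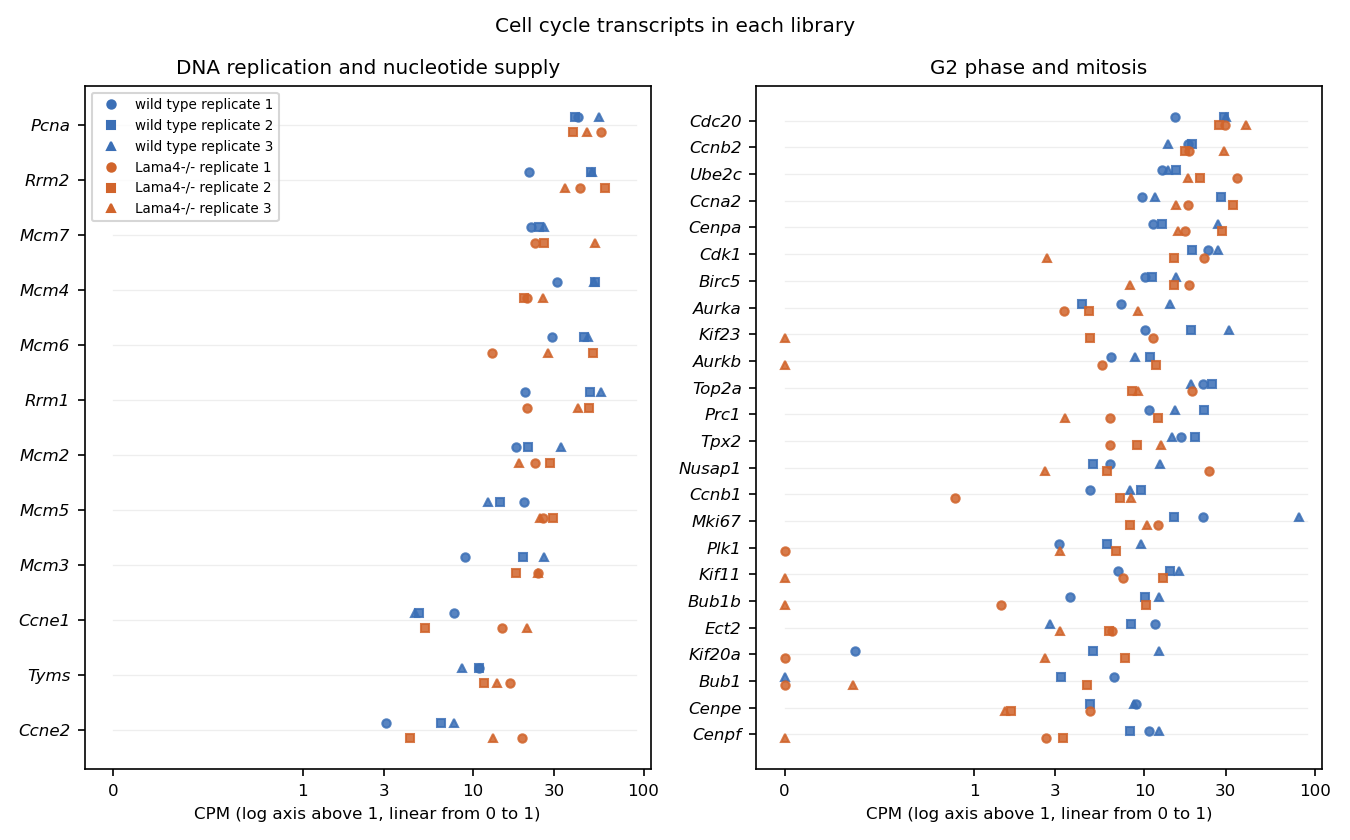
Level of each of the 36 transcripts (CPM, linear from 0 to 1 and logarithmic above) in each library, with 1 symbol per replicate, wild type in blue and Lama4-/- in orange, genes ordered from bottom to top by level per length. Mcm5 and Ube2c lie to the right in all 3 Lama4-/- libraries, Mcm4, Mki67, Tpx2 and Cenpf lie to the left, wild type replicate 3 stands apart for Mki67 at 80.5 CPM, and points on the left edge of the right panel are at 0.

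The genes were divided by textbook role into 12 of DNA replication and nucleotide supply and 24 of G2 phase and mitosis. This division was made after the values had been seen, so the contrast between the roles is a description. Of the replication genes 4 had a negative and 8 a positive log2 fold change, with a median of 0.23. Of the mitotic genes 17 were negative and 7 positive, with a median of -0.78. The first median was -0.02 without wild type replicate 1, with 6 genes on each side, and the second lay between -0.87 and -0.55 over the 6 sets with 1 library left out. The difference between the roles was not tested.

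The 12 replication genes together summed to 232, 335 and 377 CPM in wild type and to 299.8, 339 and 343 CPM in Lama4-/-. The wild type mean was 315 ± 74.6 CPM and the Lama4-/- mean 327 ± 23.9 CPM, so the Lama4-/- values lay inside the wild type range. The 24 mitotic genes summed to 259, 325 and 416 CPM in wild type and to 270, 282 and 195 CPM in Lama4-/-, with means of 333 ± 78.8 and 249 ± 47.1 CPM. Here too the groups overlapped, with wild type replicate 3 highest and Lama4-/- replicate 3 lowest. All 36 genes together summed to 491, 659 and 793 CPM in wild type and to 570, 621 and 539 CPM in Lama4-/-. These sums are between 0.0491% and 0.0793% of the adjusted library total.

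**Figure D2:**
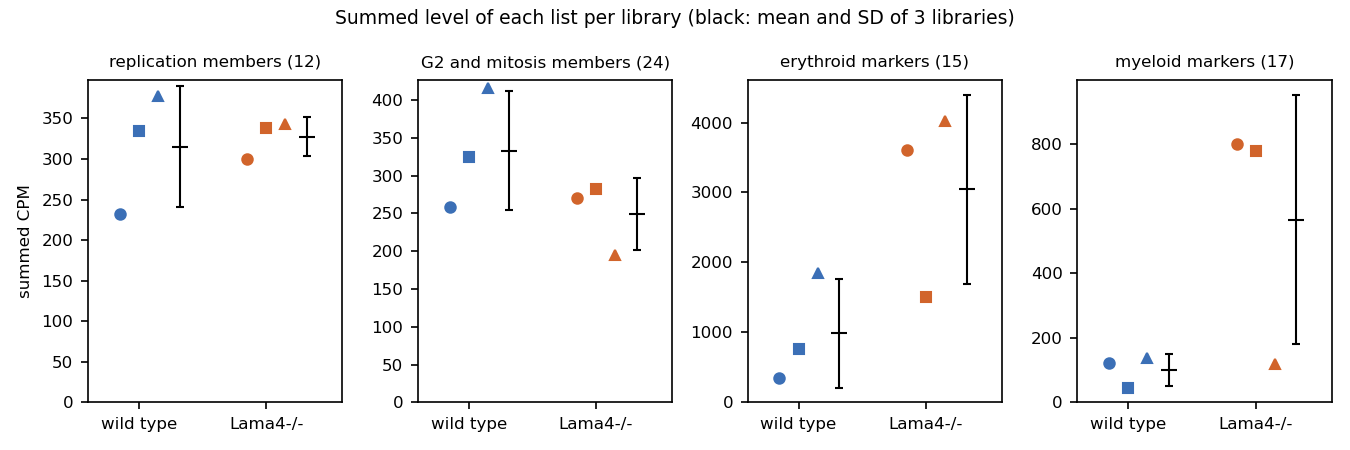
Summed CPM per library for the 12 replication genes, the 24 G2 and mitosis genes, 15 erythroid markers and 17 myeloid markers, with 1 point per library (circle, square and triangle for replicates 1, 2 and 3), wild type in blue, Lama4-/- in orange and the mean ± SD in black. Both cell cycle sums overlap between genotypes, erythroid markers range from 350 to 1849 CPM in wild type and from 1501 to 4021 CPM in Lama4-/-, and myeloid markers reach 801 CPM in Lama4-/-.

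Marker transcripts of other cell types were also measured, and none passed the adjusted threshold in edgeR. DESeq2 called 4 neutrophil and myeloid markers (Camp, S100a8, S100a9 and Lyz2), 1 erythroid marker (Hbb-bs) and 1 pan-leukocyte marker (Cd53), all higher in Lama4-/-. Of all genes it tested DESeq2 called 4.64%. At an unadjusted p under 0.05 in edgeR 4 of 14 erythroid and 4 of 11 myeloid markers tested were higher and 0 lower. Of all tested genes 4.45% were higher and 8.34% lower at that level. With the length trend removed 1 erythroid and 4 myeloid markers were higher and 0 lower, beside 8.11% of all tested genes in either direction. Without that removal 1 of 7 pan-leukocyte markers was higher and the 1 B lineage marker tested was lower. Of the erythroid precursor markers 13 of 14 tested had a positive log2 fold change, and the summed level of the 15 markers ran from 350 to 1849 CPM in wild type and from 1501 to 4021 CPM in Lama4-/-. Most of it was globin, with Hbb-bs at 390 ± 343 against 1438 ± 703 CPM and Hba-a1 at 159 ± 137 against 489 ± 229 CPM. Of the 15 erythroid markers 2, 1 and 0 were at 0 in wild type and 1, 0 and 3 in Lama4-/-. Among them the erythroid regulator Gata1 was at 0 in wild type replicates 1 and 2 and in Lama4-/- replicates 1 and 3. Of the neutrophil and myeloid markers all 11 tested of 17 were positive, with sums of 45.4 to 138 CPM in wild type and of 801, 779 and 120 CPM in Lama4-/-. S100a9 was at 27.0 ± 19.4 against 155 ± 112 CPM and S100a8 at 15.9 ± 8.76 against 99.5 ± 65.2 CPM. Pan-leukocyte markers summed to 21.8 to 52.2 CPM in wild type and to 26 to 59.6 CPM in Lama4-/-, led by Lcp1 and Coro1a. Of these 8 markers 2, 1 and 3 were at 0 in wild type and 1, 0 and 2 in Lama4-/-. Ptprc, which encodes CD45, was at 0 in wild type replicate 1 and in Lama4-/- replicates 1 and 3. Endothelial markers were at 8.56 to 12.5 CPM in wild type and at 0.18 to 2.69 CPM in Lama4-/-, with Vwf and Egfl7 the highest of 9. All 4 tested endothelial markers had negative log2 fold changes, with 0 at an unadjusted p under 0.05 in edgeR. B lineage markers, almost all Ebf1, which stroma also expresses, were at 57.3 to 87.1 and 42.9 to 47.9 CPM, with Cd79a at 0 in 4 libraries. Stem and megakaryocyte progenitor markers, led by Meis1 and Hlf, were at 21.6 to 34.0 and 20.5 to 25.9 CPM, with 0 of 7 tested at that level. Erythroid and myeloid precursors in marrow also divide, and the part of these cells in the cell cycle values was not tested.

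Mki67, which encodes the Ki-67 protein that coats mitotic chromosomes and is the standard proliferation marker (chr7:135689784-135716361, GRCm38), was at 22.0, 14.9 and 80.5 CPM in wild type and at 12, 8.20 and 10.3 CPM in Lama4-/-. The groups did not overlap, and wild type replicate 3 was far above the other two. Its log2 fold change was -1.95 (SE 0.64, unadjusted p = 0.0174, edgeR adjusted p = 0.295). With DESeq2 the adjusted p was 0.049986, just under the threshold, and in the authors' deposited table it is 0.0406. Without wild type replicate 3 the log2 fold change was -0.86, with an edgeR adjusted p of 0.693. Its longest annotated transcript has 10061 bases, and with the length trend described below removed the log2 fold change was -0.74 (edgeR adjusted p = 0.815).

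Cyclin E starts S phase with its kinase CDK2. Ccne1 was at 7.70, 4.79 and 4.55 CPM in wild type and at 14.8, 5.19 and 20.8 CPM in Lama4-/-, with a log2 fold change of 1.25 (SE 0.61, unadjusted p = 0.0754, edgeR adjusted p = 0.443). Ccne2 was at 3.07, 6.51 and 7.72 CPM against 19.3, 4.29 and 13.1 CPM (log2 fold change 1.08, SE 0.67, edgeR adjusted p = 0.563). In both, Lama4-/- replicates 1 and 3 were above all wild type libraries and replicate 2 was inside their range.

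The MCM2 to MCM7 proteins form the ring-shaped replicative helicase, 1 of each per ring. They split by direction, with 3 negative and 3 positive log2 fold changes and a median of 0.11; with upper-quartile scaling Mcm2 turned positive. Mcm4 (chr16:15623897-15637400) was at 30.9, 51.9 and 51.2 CPM in wild type and at 20.8, 19.9 and 25.6 CPM in Lama4-/-. Its log2 fold change was -1.01 (SE 0.30, unadjusted p = 0.0105, edgeR adjusted p = 0.263; DESeq2 adjusted p = 0.0589). Once the length trend was taken out it was -0.87. Every Lama4-/- library was below every wild type library. In the authors' deposited table its adjusted p is 0.0474. Mcm5 (chr8:75109569-75128439) went the other way, at 19.9, 14.4 and 12.2 CPM in wild type and at 25.8, 29.5 and 24.8 CPM in Lama4-/-. Its log2 fold change was 0.78 (SE 0.31, unadjusted p = 0.0388, edgeR adjusted p = 0.364), or 0.86 once the length trend was taken out. Thus 2 subunits of 1 complex lay apart between genotypes in opposite directions, neither past the adjusted threshold.

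The other helicase subunits overlapped between genotypes. Mcm2 was at 17.9, 21.1 and 33.0 CPM in wild type and at 23.0, 28.1 and 18.7 CPM in Lama4-/-, with a log2 fold change of -0.05 (SE 0.35). Mcm3 was at 8.97, 19.5 and 26.2 CPM against 24.1, 17.9 and 24 CPM. Wild type replicate 1 was the lowest of the 6 for Mcm3. Mcm6 was at 28.9, 44.7 and 47.3 CPM against 13, 50.2 and 27.4 CPM, with the lowest and the highest value both in Lama4-/-. Mcm7 was at 21.8, 24.3 and 26.2 CPM against 23.2, 26 and 52.1 CPM, so that Lama4-/- replicate 3 alone stood above the rest; exons of Ap4m1 and Cops6 overlap Mcm7 on the other strand.

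Pcna encodes the sliding clamp of DNA polymerase, and had the highest level per length of the 36, at a mean of 30.4 CPM per kilobase. It was at 41.1, 39.6 and 54.9 CPM in wild type and at 56.2, 38.4 and 46.8 CPM in Lama4-/-, with a log2 fold change of 0.06 (SE 0.26). Ribonucleotide reductase, which makes deoxyribonucleotides, has a large subunit from Rrm1 and a small subunit from Rrm2. Rrm1 was at 20.04, 48.5 and 55.9 CPM against 20.6, 47.8 and 41.5 CPM (log2 fold change -0.18, SE 0.46). Rrm2 was at 21.2, 49.0 and 49.7 CPM against 42.6, 59.6 and 34.6 CPM (log2 fold change 0.19, SE 0.39). For both subunits wild type replicate 1 was the lowest of the 6 libraries. Tyms, thymidylate synthase (chr5:30058202-30073617), was at 10.8, 10.8 and 8.56 CPM in wild type and at 16.4, 11.7 and 13.8 CPM in Lama4-/-. Its groups did not overlap, with a log2 fold change of 0.48 (SE 0.38, edgeR adjusted p = 0.668). Pcna and Tyms have annotated pseudogene copies, as do Ccnb1 and Ccnb2, so reads may be shared.

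Among the mitotic cyclins and their kinase, Ccna2 was at 9.72, 28.1 and 11.5 CPM in wild type and at 17.9, 32.9 and 15.3 CPM in Lama4-/-. Ccnb1 was at 4.79, 9.59 and 8.18 CPM against 0.900, 7.22 and 8.35 CPM. Ccnb2 was at 17.9, 19 and 13.7 CPM against 18.4, 17.2 and 29.4 CPM. These 3 cyclins had log2 fold changes of 0.43, -0.45 and 0.36, each under its SE or close to it (0.52, 0.84 and 0.35). Cdk1, the kinase they activate for entry into mitosis, was at 23.7, 19 and 26.9 CPM in wild type and at 22.3, 14.9 and 2.69 CPM in Lama4-/-. Its log2 fold change of -0.80 (SE 0.67) was -0.32 without Lama4-/- replicate 3. Top2a, the topoisomerase that untangles sister chromatids, was at 22.1, 24.8 and 18.7 CPM against 19.1, 8.42 and 9.15 CPM (log2 fold change -0.84, SE 0.42, edgeR adjusted p = 0.463).

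Of the mitotic kinases, Aurka, which acts at spindle poles, was at 7.33, 4.28 and 14.1 CPM in wild type and at 3.36, 4.74 and 9.22 CPM in Lama4-/-. Aurkb, the kinase of the chromosomal passenger complex, was at 6.36, 10.8 and 8.80 CPM against 5.64, 11.7 and 0 CPM. Birc5, which encodes survivin of the same complex, was at 10.02, 11.1 and 15.4 CPM against 18.4, 15 and 8.21 CPM. Both genotypes overlapped for all 3 genes, with log2 fold changes of -0.58, -0.58 and 0.19. Bub1b, which encodes the checkpoint protein BUBR1, was at 3.66, 10.1 and 12.2 CPM against 1.44, 10.2 and 0 CPM, a log2 fold change of -1.15 (SE 1.47). The 3 genes with a mean under 5 CPM, Plk1, Bub1 and Kif20a, ranged from 0 to 12.1 CPM over the libraries and overlapped.

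At the centromere and kinetochore, Cenpf (chr1:189640606-189688086) had the most negative log2 fold change of the 36. It was at 10.7, 8.22 and 12.2 CPM in wild type and at 2.64, 3.31 and 0 CPM in Lama4-/-. That log2 fold change was -2.38 (SE 1.27, unadjusted p = 0.101, edgeR adjusted p = 0.496), or -1.30 once the length trend was taken out, for a transcript of 11130 bases. Cenpe, the kinetochore kinesin, was at 8.90, 4.79 and 8.72 CPM against 4.80, 1.65 and 1.52 CPM, with a log2 fold change of -1.49 that was -0.56 with the length trend removed. Cenpa, the centromeric histone variant, was at 11.3, 12.7 and 27.1 CPM against 17.3, 28.4 and 15.8 CPM. It had a log2 fold change of 0.26 (SE 0.46), in the other direction from the 2 long kinetochore transcripts.

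Spindle and cytokinesis genes mostly had negative log2 fold changes. Tpx2, an activator of Aurora A (chr2:152847964-152895321), was at 16.4, 19.7 and 14.5 CPM in wild type and at 6.30, 9.10 and 12.6 CPM in Lama4-/-. Its groups did not overlap, and the log2 fold change was -0.85 (SE 0.41, unadjusted p = 0.0742, edgeR adjusted p = 0.441). Kif23, a kinesin of the central spindle, was at 10.1, 18.8 and 31.5 CPM against 11.2, 4.81 and 0 CPM, a log2 fold change of -1.91 (SE 1.30, edgeR adjusted p = 0.602). Prc1, the microtubule bundler of the same structure, was at 10.7, 22.4 and 15.1 CPM against 6.24, 12 and 3.41 CPM, a log2 fold change of -1.15 (SE 0.58, edgeR adjusted p = 0.461). For both genes 1 Lama4-/- library lay inside the wild type range. Kif11, the kinesin that separates spindle poles, was at 6.96, 14.0 and 15.9 CPM against 7.44, 12.9 and 0 CPM. Ect2, the exchange factor that starts the cleavage furrow, was at 11.6, 8.39 and 2.78 CPM against 6.48, 6.17 and 3.19 CPM. Nusap1, a microtubule-binding protein, was at 6.28, 4.97 and 12.3 CPM against 23.8, 6.02 and 2.61 CPM, with the highest and the lowest of the 6 both in Lama4-/-.

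The anaphase-promoting complex was represented by its activator Cdc20 and its ubiquitin-conjugating enzyme Ube2c. Ube2c (chr2:164769898-164778822) was at 12.7, 15.4 and 13.7 CPM in wild type and at 34.8, 21.1 and 18 CPM in Lama4-/-, with no overlap and a log2 fold change of 0.82 (SE 0.36, unadjusted p = 0.0532, edgeR adjusted p = 0.398). Cdc20 was at 15.1, 29.1 and 30.2 CPM against 29.6, 27.4 and 39.4 CPM (log2 fold change 0.37, SE 0.35). So the mitotic genes did not all lie on the same side. Exons of Ube2c, Cdc20, Ccna2, Ccne2, Prc1, Nusap1 and Kif20a overlap those of a gene on the opposite strand. In that order these genes are Tnnc2, Elovl1, Exosc9, Ints8, Rccd1, Oip5 and Cdc23. The kit does not mark strand, so reads of the shared bases may be counted for either gene or left out. The counting settings are not given.

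**Figure D3:**
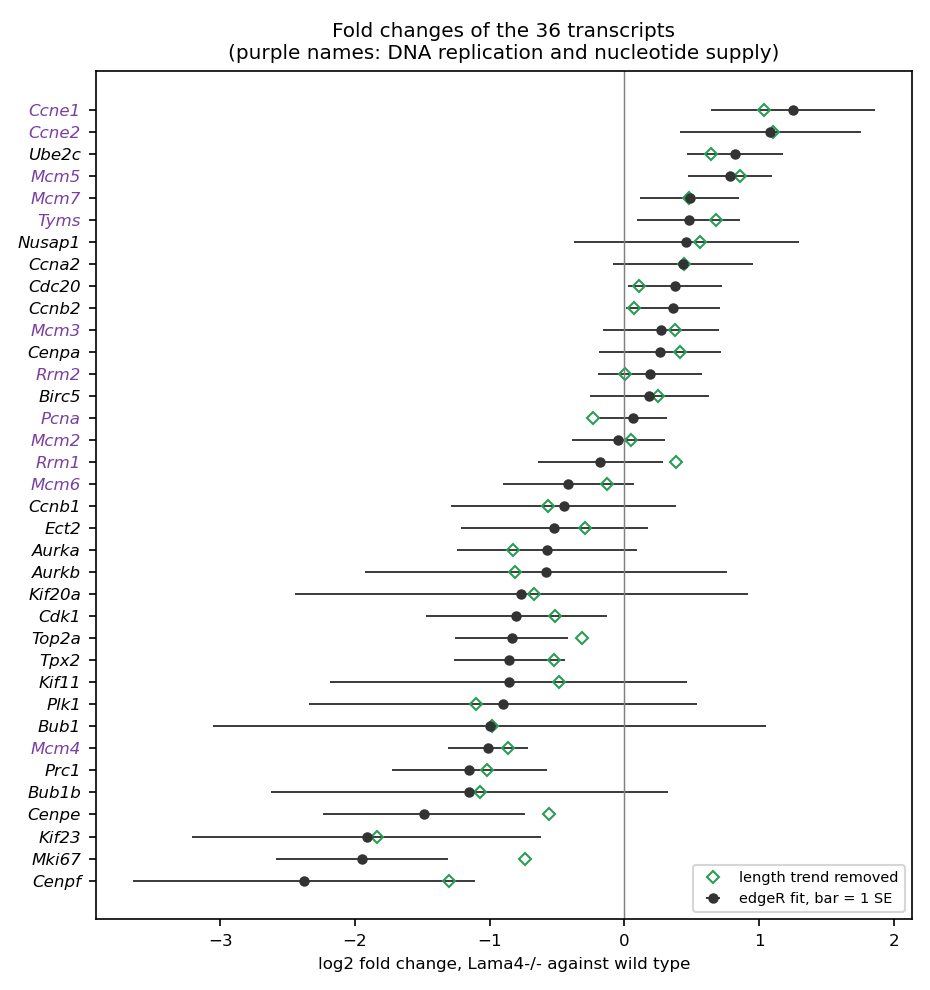
Log2 fold change of Lama4-/- against wild type for each of the 36 transcripts from the edgeR fit, with a bar of 1 SE, and the same with the length trend removed (open diamonds), genes of DNA replication and nucleotide supply named in purple. Values run from -2.38 (Cenpf) to 1.25 (Ccne1), and the open diamonds of Mki67, Cenpf and Cenpe lie nearer 0.

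Counts of 0 were found among the mitotic genes. There were 8 genes at 0 in at least 1 library, all 8 of the G2 and mitosis group. Lama4-/- replicate 3 held 5 of them, Cenpf, Kif11, Kif23, Aurkb and Bub1b (13.9% of the 36), against 5.55% of the 9137 tested genes in the same range of mean CPM. Lama4-/- replicate 1 held 3, Plk1, Kif20a and Bub1 (8.33%), against 3.70%. Wild type replicate 3 had Bub1 at 0, against 1.46% of those genes, and the other 3 libraries had none of the 36 at 0. The 2 libraries with most zeros among the 36 were thus also the 2 with most zeros among genes of like level. Library totals in the order of replicates were 13047466, 6263830 and 13409177 counts in wild type and 15663957, 12979711 and 14068457 counts in Lama4-/-. What made the zeros was not tested.

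Fold changes followed transcript length across all genes. In deciles of the longest annotated transcript, medians of the log2 fold change ran from 0.34 for the shortest to -0.92 for the longest transcripts. The 36 genes had a median length of 3462.5 bases, beside 3124 for all tested genes, and 5 exceeded 5000 bases (Cenpf, Mki67, Cenpe, Rrm1 and Top2a), all 5 with negative log2 fold changes. With the trend removed from each library, 20 of the 36 were negative and 16 positive, with a median of -0.26, and Mcm2, Pcna and Rrm1 changed sign. At an unadjusted p under 0.05 there were then 2 of 36 (5.56%), Mcm4 and Mcm5, against 8.11% of all tested genes. The mitotic median was -0.54 and the replication median 0.38 after this removal. What made fold changes follow length was not tested.

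**Figure D4:**
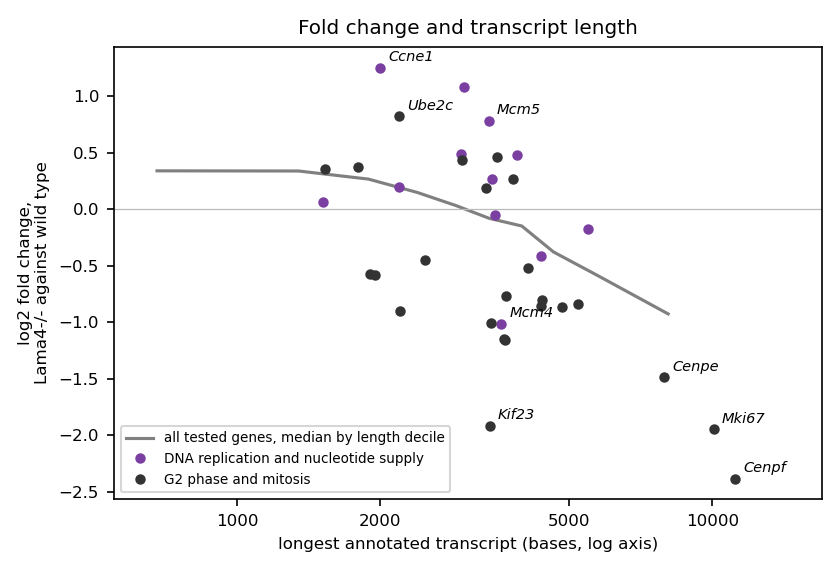
Log2 fold change of Lama4-/- against wild type (vertical axis) by length of the longest annotated transcript in bases (log axis) for the 12 replication genes (purple) and the 24 mitotic genes (black), with the median of all tested genes in each length decile as a grey line. The line goes from 0.34 to -0.92. Cenpe, Mki67 and Cenpf, the longest transcripts, lie below its long end, and Kif23, Mcm4 and Ccne1 also lie away from it.

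Promoters of these genes carry short sequence motifs that help to set the phase of their expression, and those of 7 genes are shown to make the difference between the roles visible. They were chosen after the values had been seen. Mitotic promoters are known for the cell cycle genes homology region (CHR), bound by the MuvB core of the DREAM repressor and B-MYB complexes, and for CCAAT boxes bound by NF-Y, and replication promoters for E2F sites. Each stretch is the 160 bases before the RefSeq start (GRCm38.p6), written in the direction of the gene, with matches on either strand in capitals. The matches sought were TTTGAA or TTCGAA for the CHR, CCAAT for the box, and TTTGGCGC, TTTCCCGC, TTTCGCGC or TTTGCCGC for E2F, each also as its reverse complement. Overlapping matches run together, as E2F matches on both strands do in Mcm5 and Mcm6.
Mki67 (chr7:135716380-135716539, minus strand): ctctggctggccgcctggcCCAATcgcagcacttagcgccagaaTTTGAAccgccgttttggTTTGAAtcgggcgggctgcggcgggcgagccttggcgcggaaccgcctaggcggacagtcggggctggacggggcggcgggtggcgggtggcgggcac
Top2a (chr11:99024190-99024349, minus strand): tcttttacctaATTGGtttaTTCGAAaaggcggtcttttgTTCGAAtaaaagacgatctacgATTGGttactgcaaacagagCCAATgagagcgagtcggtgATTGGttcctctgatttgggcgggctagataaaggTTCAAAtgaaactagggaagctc
Cdk1 (chr10:69352913-69353072, minus strand): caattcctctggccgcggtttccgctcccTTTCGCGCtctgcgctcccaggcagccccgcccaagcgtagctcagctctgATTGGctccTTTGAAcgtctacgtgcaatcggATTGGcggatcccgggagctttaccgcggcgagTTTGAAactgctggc
Cdc20 (chr4:118437344-118437503, minus strand): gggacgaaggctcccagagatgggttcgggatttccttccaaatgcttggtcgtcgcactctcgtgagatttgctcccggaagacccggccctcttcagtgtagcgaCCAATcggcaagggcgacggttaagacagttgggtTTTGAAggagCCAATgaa
Ube2c (chr2:164769769-164769928, plus strand): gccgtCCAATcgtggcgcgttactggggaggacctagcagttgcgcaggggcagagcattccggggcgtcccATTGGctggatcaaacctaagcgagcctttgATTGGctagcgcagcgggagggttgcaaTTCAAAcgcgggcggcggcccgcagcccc
Mcm5 (chr8:75109349-75109508, plus strand): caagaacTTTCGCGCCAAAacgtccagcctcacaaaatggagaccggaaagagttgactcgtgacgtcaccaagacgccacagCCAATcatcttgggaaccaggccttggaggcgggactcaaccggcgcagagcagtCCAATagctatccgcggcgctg
Mcm6 (chr1:128359706-128359865, minus strand): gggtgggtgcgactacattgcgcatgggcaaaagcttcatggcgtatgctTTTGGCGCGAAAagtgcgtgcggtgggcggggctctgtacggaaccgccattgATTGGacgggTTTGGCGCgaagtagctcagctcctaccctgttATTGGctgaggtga
The first 3 genes had negative log2 fold changes and the CHR in view, and Cdc20 and Ube2c had positive ones with the CHR in view too. The helicase genes Mcm5 and Mcm6 carry E2F letters, and so does the mitotic gene Cdk1. Their log2 fold changes were 0.78, -0.42 and -0.80, in that order.

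RefSeq windows of 300 bases, from 250 before the start to 50 after it, matched 30 of the 36 genes, with 1 window per gene. A CHR match was in 16 of 20 windows of mitotic genes (80%) and 2 of 10 of replication genes (20%), beside 19.4% of the windows of 27025 genes. CCAAT was in 18 of 20 (90%) and 8 of 10 (80%), beside 37.9%. An E2F match was in 1 of 20 mitotic windows (5%), that of Cdk1, and in 4 of 10 replication windows (40%), those of Mcm3, Mcm5, Mcm6 and Mcm7, beside 2.32%. Among the 16 mitotic genes with a CHR match, 12 log2 fold changes were negative and 4 positive, with a median of -0.85. The 4 positive ones were those of Ube2c, Cdc20, Cenpa and Ccnb2. Of the 4 mitotic genes without a match in the window 2 were negative and 2 positive, with a median of -0.13. The 5 genes with an E2F match had 2 negative and 3 positive values, with a median of 0.27. A link between motif and fold change was not tested. A match is a description of letters, not a bound site. The windows of Ccna2, Ccne2, Mcm4, Aurkb, Kif20a and Tpx2 were not analysed here.

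**Figure D5:**
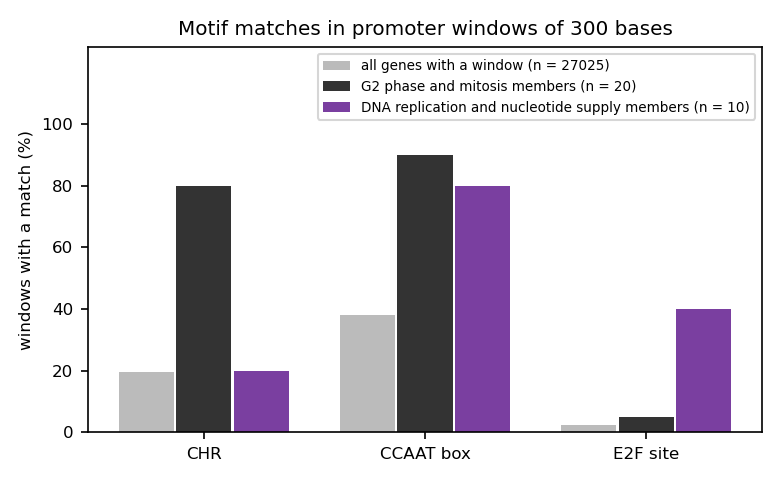
Share of promoter windows of 300 bases with a match (percent) to the CHR, the CCAAT box and the E2F site, for 27025 genes (grey), 20 G2 and mitosis genes (black) and 10 replication genes (purple). The CHR bar reaches 80% for mitotic genes beside 19.4% for all genes, and the E2F bar 40% for replication genes beside 2.32%.

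Further genes of the pathway were read from lists beyond the 36, and none passed an adjusted p of 0.05 in edgeR. A list of 18 genes held G1 cyclins, their kinases, the retinoblastoma family and the E2F and DP transcription factors. Of these 8 were negative and 10 positive, with a median log2 fold change of 0.16. At an unadjusted p under 0.05 in edgeR 3 were lower and 1 higher, beside 8.34% and 4.45% of all tested genes. Ccnd2, a D cyclin, was at 140, 64.0 and 191 CPM in wild type and at 61.8, 55.2 and 70.9 CPM in Lama4-/-. Cdk6, a D cyclin kinase, was at 123, 50.2 and 104 CPM against 47.1, 47.2 and 35.9 CPM. The other kinase of D cyclins, Cdk4, was at 167, 146 and 111 CPM against 212, 191 and 223 CPM. Cdk6 had a log2 fold change of -1.10 and Cdk4 of 0.56, and with the length trend removed that of Cdk6, whose transcript has 11525 bases, was 0.12. E2f2, an S phase activator, was at 3.89, 3.77 and 11.2 CPM against 0.120, 0.827 and 0 CPM, with an edgeR adjusted p of 0.316 and a DESeq2 adjusted p of 0.0197.

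CDK inhibitors hold cells out of the cycle, and the 2 most abundant are given here. Cdkn1a, which encodes p21, was at 618 ± 35.0 CPM over wild type libraries and at 576 ± 39.8 CPM over Lama4-/- libraries, and Cdkn1c, which encodes p57, at 93.9 ± 10.3 and 85.4 ± 37.2 CPM. Neither passed the test (edgeR adjusted p = 0.853 and 0.904), and the libraries of the genotypes overlapped for both. Of the 7 inhibitors tested of 8, 6 were negative and 1 positive, with a median of -0.44, and 0 were at an unadjusted p under 0.05 with edgeR, DESeq2 or limma voom. The share of all tested genes at that level was 12.8% with edgeR and 15.9% with limma voom.

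Of 42 other genes of replication origins, forks and nucleotide supply 17 were negative and 25 positive, with a median of 0.15. At an unadjusted p under 0.05 in edgeR there were 2 in each direction, beside 8.34% lower and 4.45% higher of all tested genes. Orc1, the origin recognition subunit, was at 3.44, 5.31 and 9.95 CPM in wild type and at 0.600, 1.35 and 0.653 CPM in Lama4-/-, while Orc3 of the same complex was at 18.6, 22.3 and 13.4 CPM against 63.7, 35.7 and 26.4 CPM. Pole, the catalytic subunit of leading-strand polymerase, was at 2.54, 5.14 and 15.3 CPM against 0, 0.301 and 0 CPM, which is 4 counts in all. Rpa2, a single-strand binding subunit, was at 22.4, 20.9 and 19.1 CPM against 34.2, 25.9 and 37.7 CPM. Genes of this list were named by p-value in each direction, so Orc1 and Orc3 lying on opposite sides follows from that choice. DESeq2 called Orc1 (adjusted p = 0.0175) and Pole (adjusted p = 0.00085), beside 4.64% of the genes it tested. Neither passed in edgeR (adjusted p = 0.276 and 0.238). Of 54 other mitotic genes tested of 55, 40 were negative and 14 positive, with a median of -0.31. Only Anln of these was at an unadjusted p under 0.05 in edgeR, beside 12.8% of all tested genes. Anln, the cleavage furrow scaffold anillin, was at 15.4, 10.4 and 25.8 CPM in wild type and at 3.96, 2.86 and 0.0726 CPM in Lama4-/- (edgeR adjusted p = 0.332).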

How the data were processed

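Total RNA of the sorted cells went through SMART-Seq v4 amplification, which keeps no strand information, and was made into Nextera XT libraries, per the labels' protocols. The submitters' processing notes name STAR 2.6.1d, featureCounts, DESeq2 and GRCm38; parameters are not given in the sources used. The deposited data are 1 table of the authors, whose headings for raw and normalized values are exchanged: the whole-number counts stand under the other heading and were used here. The other 6 columns of per-library values were not used. The deposited log2 fold change, p-value and adjusted p-value are the authors' DESeq2 results, per the file headers.

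Here counts were filtered with filterByExpr by genotype, scaled with TMM and compared with the robust quasi-likelihood test of edgeR 4.0.16 (R 4.3.3), 3 libraries against 3, no covariate, with Benjamini-Hochberg adjustment at 0.05. SE is the log2 fold change divided by the square root of F. Alternatives were other scalings and filters, DESeq2 1.42.0, voom of limma 3.58.1, a replicate block, each library left out, and removal of the length trend, which fits a library's log2 deviations from the gene means against transcript length (longest in GENCODE vM21) by lowess, span 0.3, and enters the curve as an offset. Procedures were tested on simulated data.

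The members, lists and tests were chosen with earlier results of these data known. The division into replication and mitotic genes, the motifs, the 7 promoters, the 5000-base limit, and the spread by which the list's median was judged to move (SD of per-library median log2 CPM, 0.272, pseudocount 0.5) were set after the values of these genes had been seen, as was the combination of no filter with the length trend removed. Members with a mean of at least 5 CPM, or an unadjusted p under 0.05, are given per library. Of further lists, genes with an unadjusted p under 0.05 were taken, at most 4 per direction, otherwise the 2 most abundant. Of each marker list the 2 most abundant were taken. Gata1, Ptprc and the markers called by DESeq2 are named beside that rule. Replicate libraries of 1 genotype differed beyond counting noise, with a chi-square of at least 46.4 per gene. The lowest value of all pairs, 40.7, was between genotypes, for wild type replicate 2 and Lama4-/- replicate 2.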

Additional observations from a re-analysis of the deposited data

How the results depend on the processing

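The count of genes past the adjusted threshold was 1 with all libraries and TMM, 0 with upper-quartile scaling, limma voom, the replicate block or the length trend removed, 12 with no filter, 741 with DESeq2 and 0 to 1 with 1 library left out. With no filter and the length trend removed, a combination chosen after seeing the data, it was 2. Of the 36 genes, DESeq2 called 1 and the other alternatives 0. Their median log2 fold change ran from -0.54 to 0.055 with 1 library left out and was -0.15 with no filter and the length trend removed. Log2 fold changes of 33 genes were followed, and 22 of 495 values, from 10 genes, had the other sign. Mcm2 was at 0.052 with upper-quartile scaling, 0.055 with limma voom, 0.047 with the length trend removed and 0.12 with no filter as well. Pcna was at -0.23 and -0.013, and Rrm1 at 0.38 and 0.37, with the length trend removed, with and without the filter. With 1 library left out the ranges were -0.89 to 0.069 for Ccnb1, -0.21 to 0.27 for Mcm2, -0.044 to 0.65 for Mcm3, -0.073 to 0.23 for Pcna, -0.50 to 0.12 for Rrm1, -0.099 to 0.40 for Rrm2, -1.61 to 0.0037 for Aurkb, -0.061 to 0.45 for Birc5, -0.048 to 0.78 for Cenpa and -0.85 to 0.94 for Nusap1. Where 1 library is left out fewer libraries were compared; for the other settings the cause was not tested.

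Wild type and Lama4-/- libraries share replicate numbers, but the labels do not pair them. The correlations of same-numbered deviations were 0.040, 0.132 and 0.054, and each wild type library correlated best with its own number, a hint from the data and not the design. With the replicate number as a block, 0 genes passed instead of 1, and the median of the 36 was -0.30. Genes at a few CPM in libraries of 6263830 to 15663957 counts rest on few reads, and a fold change against a library at 0 is loosely fixed.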
